A study of Mus musculus with 28 samples.

Results

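The clustered protocadherin genes are neighbouring genes for cell surface adhesion proteins, here 57 protein-coding genes on mouse chromosome 18 whose symbols start with Pcdha, Pcdhb or Pcdhg, of 21755 protein-coding genes on chromosomes 1 to 19 and X in the GENCODE M21 annotation of mm10. They comprise 14 alpha, 22 beta and 21 gamma genes, chosen by name and chromosome without measured values, though with earlier results known. All of them lie on the plus strand within 912 kb (chr18:36930184-37841873), the alpha cluster first (chr18:36930184-37187661), the beta cluster next (chr18:37264938-37524479) and the gamma cluster last (chr18:37661793-37841873). The position of each gene in domains of H3K9me2, dimethylation of lysine 9 of histone H3, is described here.

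H3K9me2 was profiled by ULI-NChIP, native chromatin immunoprecipitation from about 100000 cells, in mouse embryonic stem cells (mESCs) derived from the KH2 line, a hybrid of C57BL/6J and 129S1 that the labels call BL6/129 hybrid. In every sample the endogenous Ehmt2 gene, which encodes a methyltransferase that makes H3K9me2, carried a degron (dTAG) with an mCherry reporter, so that dTAG-13 removes the EHMT2 protein and DMSO is the solvent control. Cultures on feeder cells that also carried a MERVL-GFP reporter received DMSO or dTAG-13 for 72 h before the sort, which separated cells without GFP (mESCs) from cells with GFP, the 2-cell-like cells (2CLCs), an infrequent state that expresses genes of the early embryo. Each of these 4 conditions has 3 immunoprecipitation and 3 input libraries from a single clone, with the retinoid TTNBP added to 2 unnamed replicates by the labels and to the sorted cultures without such a limit by the methods, and unsorted mESCs kept in DMSO for 24 h add 2 libraries per kind.

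The deposited data analysed here are 5 lists of domain positions, of which 4 name a sorted condition. A domain starts from 5 kb bins whose log2 ratio of immunoprecipitation to input is above a high percentile of that ratio. It is extended to both sides until the ratio falls below a low percentile. Bins within a domain therefore need not all have a high ratio. Whether the percentiles were set for each list or in common is not known, so being in a domain is not read as an amount of the mark. Each condition is represented by 1 list with no values per replicate. Spread between replicates could therefore not be computed, and no difference between conditions was tested. The depth of the libraries is unknown, and the labelled cell states could not be checked against marker genes because the lists hold no transcript levels. Across the genome, domains covered 53.7% of bases with DMSO and 46.3% with dTAG in mESCs and 51.5% and 48.4% in 2CLCs.

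Clustered protocadherins mediate homophilic contact between neurons, and the combination of isoforms that a neuron expresses gives its surface an identity by which its own branches recognise each other. Each alpha or gamma gene has its own promoter and a large variable first exon that encodes the outside and membrane-spanning parts of the protein, and this exon is spliced to constant exons at the far end of the cluster that encode a shared cytoplasmic part. Gene models of a cluster therefore overlap and end at the same place, whereas beta genes consist largely of a variable exon and lack constant exons. Promoters are chosen with the help of CTCF and cohesin and are otherwise held silent, and the C-type isoforms (Pcdhac1, Pcdhac2, Pcdhgc3, Pcdhgc4 and Pcdhgc5) are known to be regulated differently from the rest. The clusters are transcribed mainly in the nervous system, and mESCs are not a neuronal cell type.

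More protocadherin gene starts lay in H3K9me2 domains after EHMT2 depletion than in the solvent control, in both cell states. In mESCs, 12 of 57 starts (21.1%) were in domains with DMSO and 29 (50.9%) with dTAG, against 22.3% and 23.6% of all protein-coding gene starts. In 2CLCs, 6 starts (10.5%) were in domains with DMSO and 23 (40.4%) with dTAG, against 23.2% and 26.5% of all starts. The share of members thus lay near or below that of all genes in both DMSO lists and above it in both dTAG lists. On chromosome 18 as a whole, with 513 starts, the corresponding shares were 19.5% and 21.2% in mESCs and 17.7% and 26.9% in 2CLCs. Members are neighbours that share domains, and the starts counted lay in only 2 domains with DMSO and 7 with dTAG in mESCs and in 4 and 6 in 2CLCs, so the genes are not independent observations.

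**Figure D1:**
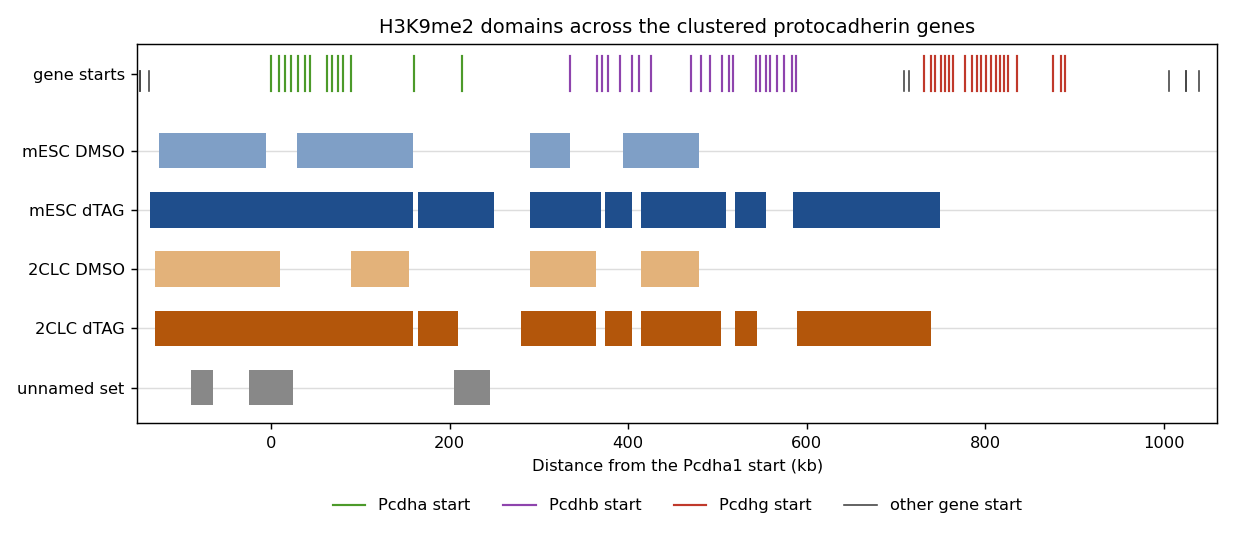
Map of H3K9me2 domains along the protocadherin clusters, with distance from the Pcdha1 start in kb on the x axis, gene starts as ticks in the top row (green alpha, purple beta, red gamma, black other genes) and domains as bars, one row for each of the 4 sorted lists and the unnamed list. In both dTAG rows the domains run from upstream of the alpha cluster to the first gamma genes with 6 breaks of 5.00 to 40.0 kb in mESCs and 5.00 to 70.0 kb in 2CLCs, and in both DMSO rows the last domain ends before the Pcdhb10 start.

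The 3 clusters differed in the share of their starts in domains. Of the 14 alpha starts, 8 (57.1%) were in domains with DMSO and 13 (92.9%) with dTAG in mESCs, and 3 (21.4%) and 12 (85.7%) in 2CLCs. Of the 22 beta starts, the counts were 4 (18.2%), 13 (59.1%), 3 (13.6%) and 9 (40.9%) in the same order. Of the 21 gamma starts, none was in a domain in either DMSO list, 3 (14.3%) were in mESC dTAG and 2 (9.52%) in 2CLC dTAG. In each cluster and each cell state the dTAG list held more starts than the DMSO list, and in each list the share fell from alpha through beta to gamma. In 2CLC DMSO the order of alpha and beta was not stable, since it turned to 7.14% for alpha and 13.6% for beta with domains narrowed by 1 bin, to 21.4% and 27.3% with domains widened by 1 bin and to 8.33% and 15.8% without starts within 5 kb of an edge.

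**Figure D2:**
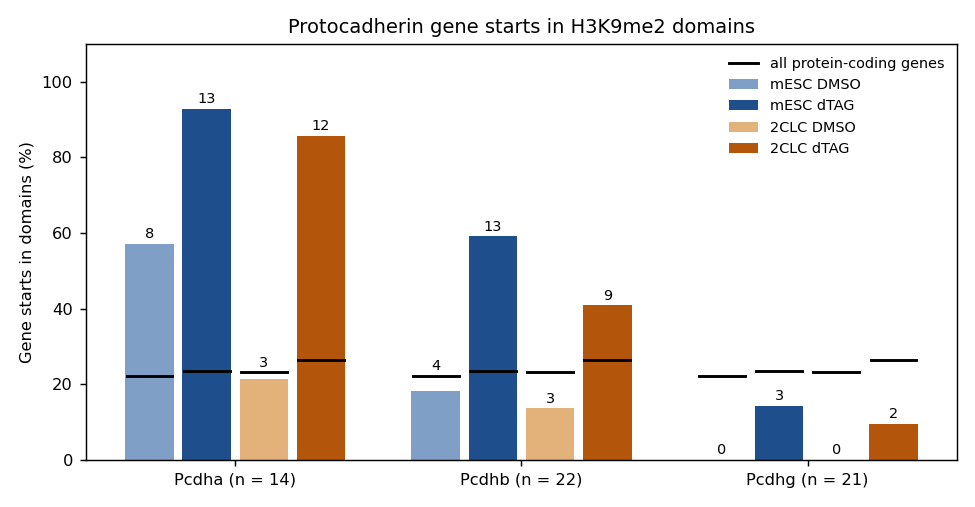
Share of gene starts in H3K9me2 domains (y axis, percent) for the alpha, beta and gamma clusters in the 4 sorted lists, with the number of starts above each bar and a black line at the share over all 21755 protein-coding genes. The alpha bars of both dTAG lists stand at 92.9% and 85.7%, and the gamma bars stay below the black line in all 4 lists.

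Which genes differed between DMSO and dTAG was followed start by start. In mESCs, 18 of the 45 members outside domains with DMSO were in a domain with dTAG (40.0%), against 8.14% of all starts outside. These were 5 of 6 such alpha genes, 10 of 18 beta genes and 3 of 21 gamma genes. In the other direction, 1 of 12 members (8.33%), Pcdhb7, was in a domain with DMSO and outside with dTAG, against 22.7% of all starts. In 2CLCs, 17 of 51 members outside domains with DMSO were inside with dTAG (33.3%, against 9.80% of all starts), made up of 9 of 11 alpha, 6 of 19 beta and 2 of 21 gamma genes. None of the 6 members in domains in 2CLC DMSO was outside with dTAG, against 18.3% of all starts. The gains over the 57 members thus made up a larger share than over all genes in both cell states. The share was larger in alpha (83.3% in mESCs, 81.8% in 2CLCs) and beta (55.6% and 31.6%). In gamma it was 14.3% in mESCs but 9.52% in 2CLCs, near the 9.80% of all starts. Of the 2 gamma genes gained in 2CLCs, Pcdhga2 lay only 0.61 kb inside a domain. The losses rest on few members, whose starts lay in 2 domains in mESC DMSO and 4 in 2CLC DMSO. With domain widths, edges or gaps changed, the losses in mESCs ranged from 0 of 16 to 2 of 11 (18.2%). No difference from all genes is therefore read from the losses.

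Grouped by the lists that held their starts, the members fell into 7 patterns. The starts of 9 genes were in domains of both dTAG lists and of neither DMSO list (Pcdha3, Pcdha4, Pcdhb4, Pcdhb5, Pcdhb10, Pcdhb11, Pcdhb15, Pcdhga1 and Pcdhga2), a pattern found in 2.72% of all genes. These were 9 of the 42 members outside both DMSO lists, against 3.69% of all such starts. Another 8 (Pcdha5 to Pcdha11 and Pcdhb6) were in domains in every list but 2CLC DMSO, the pattern of 0.906% of all genes. A further 6 (Pcdhac2, Pcdhb2, Pcdhb12, Pcdhb16, Pcdhb22 and Pcdhga3) were in mESC dTAG alone, as were 1.68% of all genes, and 3 (Pcdha1, Pcdha2 and Pcdhb1) were in every list but mESC DMSO, as were 1.55%. Only Pcdha12, Pcdhb8 and Pcdhb9 were in domains in all 4 lists, the pattern of 15.1% of all genes, and Pcdhb7 was in mESC DMSO alone, as were 1.40%. The remaining 27, 1 alpha, 8 beta and 18 gamma genes, were in no sorted list, as were 65.8% of all genes.

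In the alpha cluster, the starts from Pcdha1 to Pcdha12 lay in 1 domain in each dTAG list, whereas the DMSO lists held separate domains and gaps there. In mESC DMSO a domain of 120 kb ended just before Pcdha1 and a second of 130 kb (chr18:36959568-37089567) held the 8 starts from Pcdha5 to Pcdha12. In mESC dTAG a domain of 295 kb (chr18:36794568-37089567) held all 12 starts from Pcdha1 to Pcdha12, with its right edge at the same base as in mESC DMSO. In 2CLC DMSO a domain of 140 kb reached over Pcdha1 and Pcdha2, another of 65.0 kb (chr18:37019568-37084567) held Pcdha12, and the 80 kb between them held the 9 starts from Pcdha3 to Pcdha11. In 2CLC dTAG these bases were again in a domain, of 290 kb, which ended at the same base as both mESC domains and held 12 starts. Beyond Pcdhac1 a further domain covered 85.0 kb in mESC dTAG and 45.0 kb in 2CLC dTAG, where it was followed by a gap of 70.0 kb over the end of the alpha cluster.

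The distance from a start to the nearest domain edge, counted positive inside a domain and negative outside, shows how far each gene was from a change of state. Pcdha1, the first gene of the locus, lay at -5.62 kb with DMSO and 135.62 kb with dTAG in mESCs, and 9.38 kb and 130.62 kb in 2CLCs. Pcdha2 lay at -14.64 kb, 144.64 kb, 0.36 kb and 139.64 kb in the same order. Both genes were far inside in the dTAG lists, and Pcdha2 was the deepest of all members in mESC dTAG. Pcdha3 lay at -13.46 kb, 143.46 kb, -6.54 kb and 143.46 kb, and it was the deepest member in 2CLC dTAG. Pcdha4 lay at -6.92 kb, 136.92 kb, -13.08 kb and 136.92 kb. Like Pcdha3, it was outside both DMSO domains by more than 1 bin and more than 100 kb inside both dTAG domains.

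Further into the cluster the 2 DMSO lists differed from each other. Pcdha5 lay at 0.87 kb with DMSO and 129.13 kb with dTAG in mESCs, and -20.87 kb and 129.13 kb in 2CLCs. Pcdha7, near the middle of the 2CLC DMSO gap, lay at 14.23 kb, 115.77 kb, -34.23 kb and 115.77 kb. The starts between them and on to Pcdha11 showed the same order of states, with Pcdha6 at 8.06 kb and -28.06 kb, Pcdha8 at 32.8 kb and -27.2 kb, Pcdha9 at 38.31 kb and -21.69 kb, Pcdha10 at 45.64 kb and -14.37 kb and Pcdha11 at 51.15 kb and -8.86 kb in mESC DMSO and 2CLC DMSO. Pcdha12, the last of the alternate alpha genes, was the deepest member in mESC DMSO at 60.58 kb, lay at 69.42 kb in both dTAG lists and only 0.58 kb inside its domain in 2CLC DMSO. With domains narrowed by 1 bin, 1 of the 3 alpha starts stayed in a domain in 2CLC DMSO.

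The C-type genes at the end of the alpha cluster were outside the long domains over the other alpha genes. Pcdhac1 lay outside the domains of all 4 lists, at -0.45 kb in mESC DMSO, mESC dTAG and 2CLC dTAG and at -5.45 kb in 2CLC DMSO. In both dTAG lists its start was inside a gap of 5.00 kb, or 1 bin, between 2 domains (chr18:37089568-37094567). Pcdhac2, the last alpha gene, lay at -53.94 kb with DMSO and 36.06 kb with dTAG in mESCs, and -58.94 kb and -3.94 kb in 2CLCs. It was thus in a domain in mESC dTAG only, and in 2CLC dTAG it was outside by less than 1 bin. The distance of Pcdhac1 from a domain edge is smaller than the width of the bins.

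**Figure D3:**
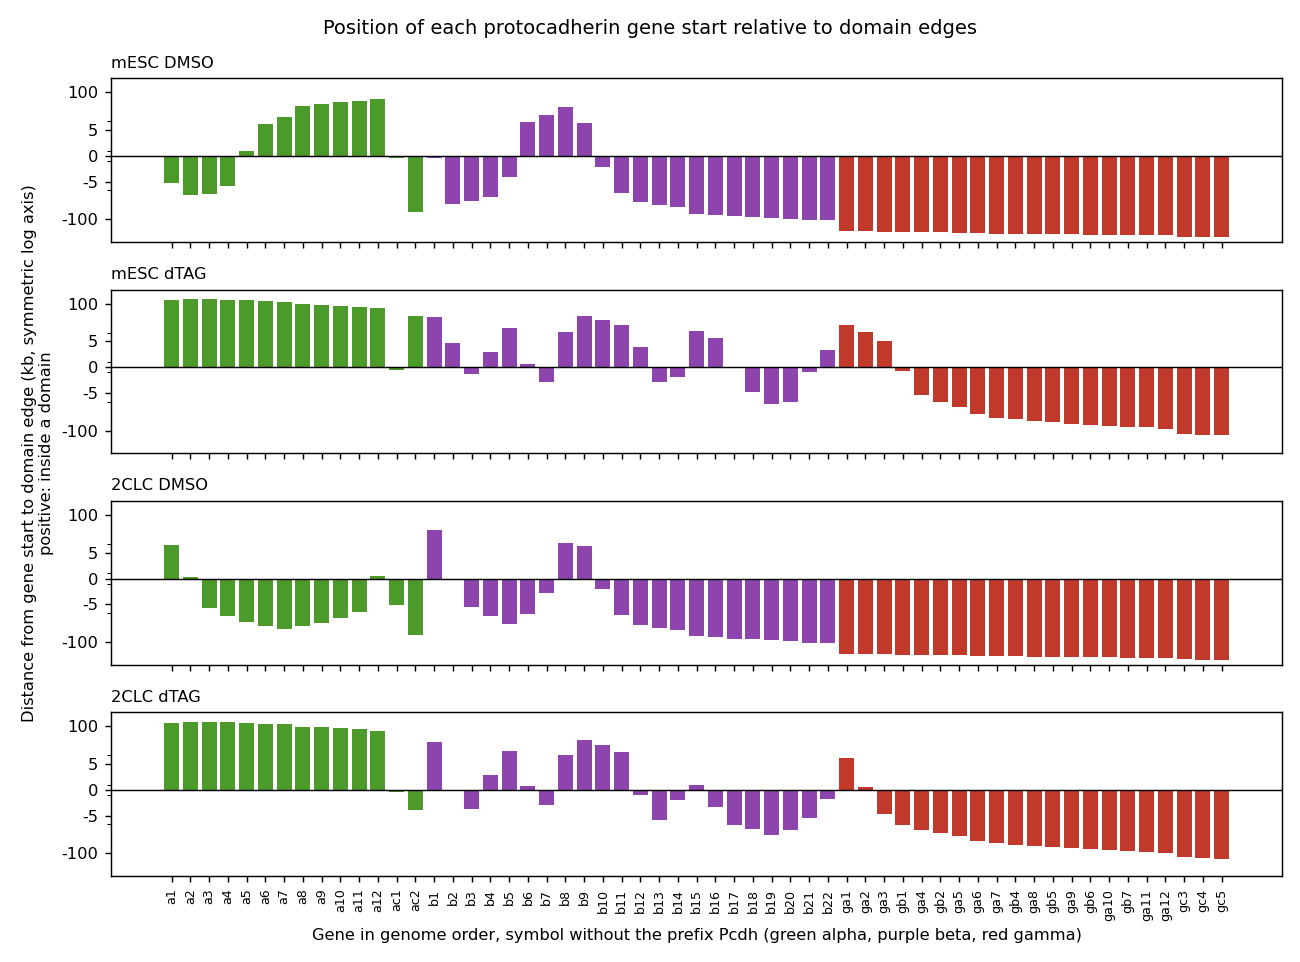
Distance from each of the 57 gene starts to the nearest domain edge (y axis, kb on a symmetric log scale, positive inside a domain) with the genes in genome order on the x axis, in 1 panel for each sorted list. In mESC dTAG and 2CLC dTAG the alpha bars reach up to 144.64 kb and 143.46 kb, the beta bars change sign from gene to gene, and the gamma bars turn negative after the first genes.

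The beta cluster was covered in alternation, and in the dTAG lists many of its genes were close to a domain edge. In mESC dTAG, 12 of 22 beta starts lay within 5 kb of an edge, inside or outside, and in 2CLC dTAG 10, compared with 3 in either DMSO list. The beta counts with dTAG therefore depend on the exact edges, and with every domain narrowed or widened by 1 bin the beta starts in mESC dTAG were 8 and 20 of 22. Domains were also more numerous with dTAG over chromosomes 1 to 19 and X. They numbered 4323 with DMSO and 7312 with dTAG in mESCs, and 4246 and 8820 in 2CLCs. The share of all gene starts within 5 kb of an edge was not computed. Closeness to an edge is thus not read as a trait of the beta cluster. Pcdhb1, the first beta gene, lay at -0.37 kb with DMSO and 34.63 kb with dTAG in mESCs and at 29.63 kb in both 2CLC lists, where it was the deepest member of 2CLC DMSO. Its position in mESC DMSO was outside by a small part of a bin. Pcdhb2 lay at -29.76 kb, 4.76 kb, -0.24 kb and -0.24 kb in the order mESC DMSO, mESC dTAG, 2CLC DMSO and 2CLC dTAG. Pcdhb4 lay at -17.11 kb, 2.89 kb, -12.89 kb and 2.89 kb, and Pcdhb5 at -4.19 kb, 14.19 kb, -24.19 kb and 14.19 kb. These genes shared a domain of 30.0 kb that was called in both dTAG lists between identical edges (chr18:37304568-37334567) and in neither DMSO list between these edges.

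Pcdhb6 and Pcdhb7 lay around the right edge of that domain. Pcdhb6 lay at 9.35 kb in mESC DMSO, 0.65 kb in both dTAG lists and -10.65 kb in 2CLC DMSO. Pcdhb7 lay at 17.14 kb in mESC DMSO and at -2.87 kb in mESC dTAG, 2CLC DMSO and 2CLC dTAG, and it was the only member in a domain with DMSO and outside with dTAG. With gaps of 10 kb or less joined, it was inside in mESC dTAG and no member left. The mESC DMSO domain of 85.0 kb (chr18:37324568-37409566) ran across Pcdhb6, Pcdhb7, Pcdhb8 and Pcdhb9, and in mESC dTAG a gap of 10.0 kb around Pcdhb7 lay within it. Pcdhb8 lay at 30.55 kb in mESC DMSO and 10.55 kb in the other 3 lists. Pcdhb9 lay at 8.71 kb in both DMSO lists, 38.71 kb in mESC dTAG and 33.71 kb in 2CLC dTAG, as the domain over it ended further to the right in the dTAG lists.

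Downstream of Pcdhb9 the DMSO lists held no domain up to the end of the gamma cluster, a stretch of 432 kb with 34 member starts in either list. Pcdhb10 was outside both DMSO domains by less than 1 bin and inside both dTAG domains, at 27.9 kb in mESCs and 22.9 kb in 2CLCs. Pcdhb11 lay at 18.15 kb in mESC dTAG and 13.15 kb in 2CLC dTAG, and Pcdhb12 at 3.95 kb and -1.05 kb, on either side of an edge. Pcdhb15 lay at 11.03 kb and 1.03 kb. Pcdhb12 and Pcdhb15 lay near the right ends of dTAG domains that reached 1 or 2 bins further in mESCs than in 2CLCs. Pcdhb16 was at 6.75 kb in mESC dTAG and -3.25 kb in 2CLC dTAG, and Pcdhb22, the last beta gene, at 3.31 kb and -1.7 kb, each again inside in mESC dTAG only.

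The 8 beta genes outside every sorted domain were Pcdhb3, Pcdhb13, Pcdhb14 and Pcdhb17 to Pcdhb21. In mESC dTAG their starts lay in gaps of 5.00 kb (Pcdhb3), 10.0 kb (Pcdhb13 and Pcdhb14) and 30.0 kb (the other 5), and in 2CLC dTAG in gaps of 10.0 kb, 15.0 kb and 45.0 kb at the same places. From the first base of the clusters to the last domain edge, mESC dTAG had 6 gaps, and 5 of them held at least 1 protocadherin start, 10 starts in 100 kb of gaps against 29 starts in 649 kb of domains, or 10.0 and 4.47 starts per 100 kb. In 2CLC dTAG all 6 gaps held a start, with 15 starts in 155 kb and 23 in 584 kb of domains, or 9.68 and 3.94 per 100 kb. The same densities in mESC DMSO were 5.01 outside and 4.62 inside domains, and in 2CLC DMSO 6.42 and 2.80. The last DMSO edge lies before Pcdhb10, so these values leave out 432 kb with 34 starts and cover a shorter stretch than the dTAG values. The dTAG domains also include the 137 kb between the beta and gamma clusters, which hold no member start. The breaks in the dTAG domains thus held starts at a higher density than the domains themselves, in lists that were each called once. They were 5.00 to 40.0 kb wide in mESC dTAG and 5.00 to 70.0 kb wide in 2CLC dTAG.

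The gamma cluster was almost free of domains. A domain of 165 kb in mESC dTAG (chr18:37514567-37679566) and of 150 kb in 2CLC dTAG (chr18:37519567-37669566) ran from the end of the beta cluster across the space between the clusters and ended within the first gamma genes. Pcdhga1, the first gamma gene, lay at -252.23 kb in both DMSO lists, 17.77 kb in mESC dTAG and 7.77 kb in 2CLC dTAG. Pcdhga2 lay at -259.39 kb, 10.61 kb and 0.61 kb, and Pcdhga3 at -264.74 kb, 5.26 kb and -4.74 kb. These 3 were the gamma genes whose state differed between any lists, and the domain over them ended 2 bins earlier in 2CLC dTAG than in mESC dTAG. With domains narrowed by 1 bin, 1 gamma start was left in a domain in 2CLC dTAG. The other 18 gamma starts lay outside in all 4 lists.

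The C-type gamma genes lay farthest from any sorted domain among the members. Pcdhgc3 lay at -396.8 kb in both DMSO lists, -126.8 kb in mESC dTAG and -136.8 kb in 2CLC dTAG. Pcdhgc4 lay at -405.51 kb, -135.51 kb and -145.51 kb, and Pcdhgc5, the last gene of the locus, at -409.95 kb, -139.95 kb and -149.95 kb. Of the 5 C-type genes, Pcdhac2 was thus the only one with its start in a domain of any sorted list. No domain of any list lay in the 500 kb downstream of the clusters.

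Gene bodies followed the starts, within what the shared gene ends allow. Over the 14 alpha models, the mean share of bases in domains was 43.5% with DMSO and 92.4% with dTAG in mESCs, and 26.9% and 67.2% in 2CLCs. Their ranges were 0 to 56.8% with DMSO and 81.7 to 94.9% with dTAG in mESCs. In 2CLCs they were 0 to 38.5% and 0 to 79.4%. Because alpha models overlap and end together, these ranges describe much the same stretch of DNA and rest on few domain edges. The covered share of gene bodies over all genes was not computed. Over the 22 beta genes, which have no shared constant exons, the means were 18.2%, 63.4%, 14.5% and 42.0%, with 4, 12, 3 and 7 genes wholly covered and 18, 5, 18 and 9 not covered at all. Beta genes were therefore mostly in or out as whole genes. Most of them are shorter than 1 bin of 5 kb, so this follows largely from their length and adds little to their starts. Gamma models had means of 0, 0.912%, 0 and 0.222%, with Pcdhga1 the highest at 9.87% in mESC dTAG and 4.32% in 2CLC dTAG.

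Measured as bases, the gamma span was again the least covered, and the order of alpha and beta was not the same in every list. The alpha span was covered to 50.5% with DMSO and 94.9% with dTAG in mESCs, and 28.9% and 79.4% in 2CLCs. The beta span was covered to 32.7%, 78.8%, 36.5% and 69.2%, so that in 2CLC DMSO the beta span was covered to a larger share than the alpha span, the reverse of the other 3 lists and of the starts. The gamma span was covered to 0, 9.87%, 0 and 4.32%. The 137 kb between the beta and gamma clusters were outside domains in both DMSO lists and covered to 100% in both dTAG lists, whereas the 77.3 kb between alpha and beta were covered to 58.2%, 58.7%, 58.7% and 71.7%. In the 500 kb upstream of the clusters the values were 24.0%, 37.1%, 26.1% and 34.1%.

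**Figure D4:**
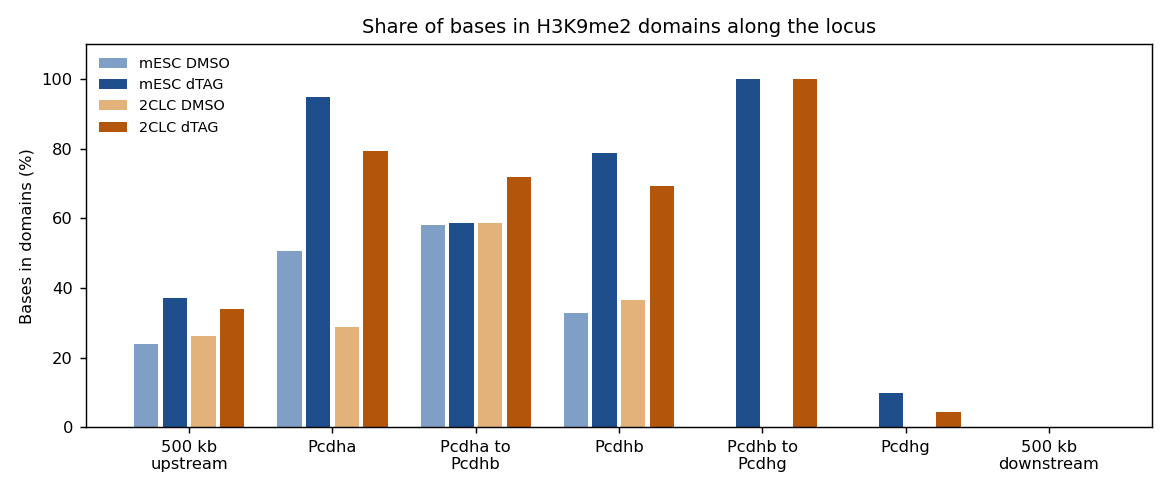
Share of bases in H3K9me2 domains (y axis, percent) in the 3 clusters, the spaces between them and the 500 kb on either side (x axis, in genome order) in the 4 sorted lists. The space between Pcdhb and Pcdhg stands at 100% in both dTAG lists and at 0 in both DMSO lists, and the 500 kb downstream stand at 0 in all 4.

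Over the whole locus, domains covered 28.5% of bases with DMSO and 71.2% with dTAG in mESCs and 23.5% and 64.1% in 2CLCs, or 260 kb with DMSO and 649 kb with dTAG in mESCs, and 214 kb and 584 kb in 2CLCs. In mESCs, 61.3% of the bases outside domains with DMSO were inside with dTAG and 3.85% of those inside were outside with dTAG, while the shares over chromosomes 1 to 19 and X were 9.21% and 21.6%. In 2CLCs the corresponding shares were 53.1% and 0 in the locus and 12.2% and 17.5% over these chromosomes. The locus thus went from below the genome's covered share with DMSO to above it with dTAG, while the genome's own share was lower with dTAG. The Jaccard index, shared bases over bases in either list, was 0.871 between the 2 dTAG lists and 0.585 between the 2 DMSO lists within the locus, and 0.794 and 0.830 over these chromosomes. Of the 612 kb outside both DMSO lists, 360 kb were in mESC dTAG, 295 kb in 2CLC dTAG and 285 kb in both.

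Between cell states, the DMSO lists differed at more members than the dTAG lists. With DMSO, 9 of the 12 members in mESC domains (75.0%, against 13.9% of all starts) were outside 2CLC domains, namely Pcdha5 to Pcdha11, Pcdhb6 and Pcdhb7, and 3 of the 45 outside in mESCs (6.67%, against 5.13%) were inside in 2CLCs, namely Pcdha1, Pcdha2 and Pcdhb1. With dTAG, 6 of 29 members in mESC domains (20.7%, against 14.1% of all starts) were outside in 2CLCs, and none of 28 outside in mESCs was inside in 2CLCs, against 8.16%. Of the 9 genes with DMSO, 7 are neighbours in the alpha cluster that were all affected by the same gap of 80 kb, so the count rests on few domain edges. Each of the 6 members of mESC dTAG alone lay within 5 kb of an edge in 2CLC dTAG.

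The genes around the clusters were counted in the same way. Of 34 other protein-coding genes with starts within 500 kb, 2 were in domains with DMSO and 5 with dTAG in mESCs, and none and 6 in 2CLCs. These are 5.88%, 14.7%, 0 and 17.6%, each below the share over all genes (22.3%, 23.6%, 23.2% and 26.5%). Slc25a2, a mitochondrial ornithine carrier, and Taf7, a subunit of the general transcription factor TFIID, lie between the beta and gamma clusters and were inside the dTAG domains only, Slc25a2 at 40.82 kb in mESCs and 30.82 kb in 2CLCs and Taf7 at 35.36 kb and 25.36 kb. With DMSO both were far from any domain, at -229.18 kb and -234.64 kb. Gm42416, Gm37013 and Gm37388 are models that start inside the alpha cluster and run into the gamma cluster, and their starts followed those of the nearby alpha genes. Pfdn1, a prefoldin subunit gene upstream, was in a domain in 2CLC dTAG only, at 4.96 kb, and at -0.04 kb in mESC dTAG. Zmat2, the nearest gene upstream, and Diaph1, the nearest downstream, were outside in all 4 lists, as was every other neighbour.

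Other protocadherins, which lie elsewhere in the genome and are transcribed from ordinary promoters, gave a mixed picture. Of the 12 non-clustered protocadherin genes, 4 starts were in domains in mESC DMSO and 7 in each of the other 3 sorted lists (33.3% and 58.3%). In mESCs, 5 of 8 starts outside domains with DMSO were inside with dTAG (Pcdh8, Pcdh9, Pcdh10, Pcdh11x and Pcdh19) and 2 of 4 left (Pcdh15 and Pcdh18). Over all genes 8.14% entered and 22.7% left in mESCs, and at the clustered genes 18 of 45 entered. In 2CLCs, 1 of 5 entered (Pcdh10) and 1 of 7 left (Pcdh9), against 9.80% and 18.3% of all starts. Pcdh1 and Pcdh12, which lie downstream of the clusters on chromosome 18, were outside in all 4 lists. The higher count with dTAG in both cell states, seen at the clustered genes, was therefore seen in mESCs only among the non-clustered ones, and the difference between the lists of genes was not tested.

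Genes for factors known to act on the choice of protocadherin promoters were counted beside all genes. Of 13 such genes, none was in a domain with DMSO and 2 with dTAG in mESCs, and 1 and 3 in 2CLCs, that is 0, 15.4%, 7.69% and 23.1% where all genes had 22.3%, 23.6%, 23.2% and 26.5%. Smc3, a subunit of the cohesin ring, was inside in all lists but mESC DMSO, at 11.39 kb in mESC dTAG and 1.39 kb in both 2CLC lists. Setdb1, which encodes a methyltransferase for H3K9 trimethylation, was inside in mESC dTAG only, at 2.82 kb, and the cohesin genes Rad21 and Stag2 in 2CLC dTAG only, at 8.08 kb and 1.98 kb. Ctcf, Smchd1, Dnmt3b and the other factors were outside in every sorted list. These positions say nothing about the activity of the factors.

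The sequence of the locus differed with its domain state. Bases in domains of all 4 sorted lists (175 kb) had a GC content of 40.0%, 66.5% soft-masked bases, that is repeats marked in the assembly, and an observed over expected CpG ratio of 0.194. Bases in both dTAG lists and neither DMSO list (285 kb) had 40.2%, 48.1% and 0.220, and bases in no sorted list (242 kb) 43.9%, 21.5% and 0.346. The remaining bases, in domains of other combinations of lists (209 kb), had 41.3%, 23.9% and 0.348. Repeat content was thus higher and CpG content lower in the first and second class than in the bases of no list, while the bases of other combinations were close to those of no list. On chromosome 18 the soft-masked shares of the same 4 classes were 42.4%, 41.6%, 25.3% and 29.7%. The CpG ratios there were 0.157, 0.217, 0.226 and 0.181, so on the chromosome the second class was close to the bases of no list. Member starts were placed the other way, with 1.71 per 100 kb in the first class, 3.16 in the second, 11.1 in the third and 8.60 in the last.

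**Figure D5:**
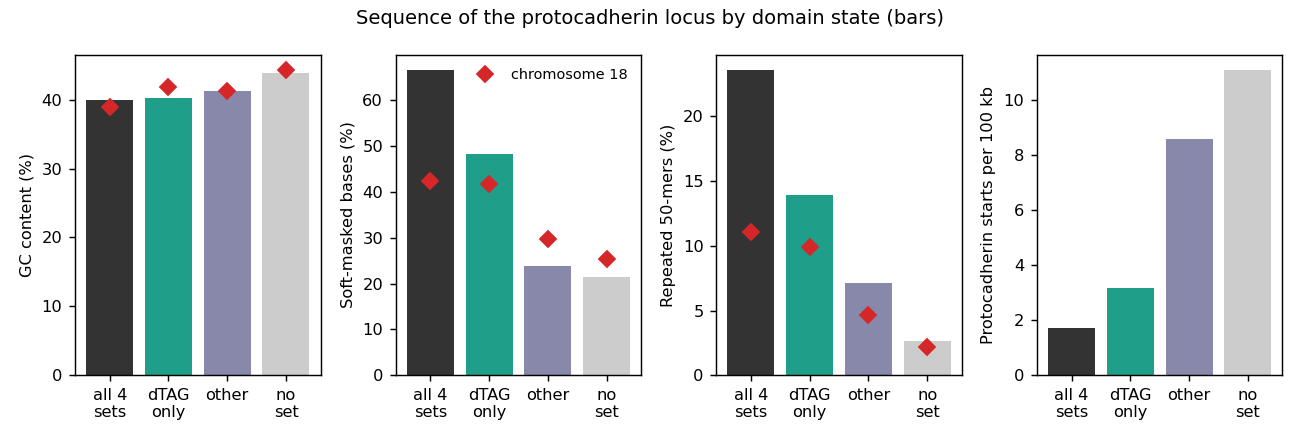
Sequence of the locus by domain state (x axis, bases in all 4 sorted lists, in both dTAG lists and neither DMSO list, in other combinations, or in no list), with GC content, soft-masked bases and repeated 50-mers in percent and protocadherin starts per 100 kb on the y axes. Bars show the locus and diamonds chromosome 18, and the share of soft-masked bases is 66.5% and 48.1% in the left pair of classes and 23.9% and 21.5% in the right pair, while the density of starts is lowest on the left (1.71) and highest on the right (11.1).

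Sequences that recur on the chromosome were followed as well, since reads from them can be placed at more than 1 site. The share of 50-mers that occur more than once on chromosome 18, on either strand, was 23.6% in the bases of all 4 lists, 13.9% in those of both dTAG lists and neither DMSO list, 7.13% in those of other combinations and 2.64% in those of no list, compared with 11.1%, 9.95%, 4.63% and 2.23% on the whole chromosome. By span, it was 13.9% in alpha, 9.61% in beta, 3.11% in gamma and 21.6% between beta and gamma, in the same order as their covered shares in mESC dTAG. The order differed in both DMSO lists, where the space between beta and gamma was covered to 0, and none of these orders was tested. Within the clusters part of this comes from the first exons themselves, with a median of 14.5% over alpha, 2.96% over beta and 0.589% over gamma genes. The median first exon had a GC content of 53.1% in alpha, 45.1% in beta and 52.6% in gamma and a CpG ratio of 0.665, 0.420 and 0.533. Gamma and alpha genes were thus close in GC content of the first exon. Over the whole spans, GC content was 40.4% in alpha, 40.5% in beta and 45.1% in gamma. A relation of base composition to domain state was not tested. The part of read placement and repeats in the domain positions was not tested.

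The unnamed list, whose name gives neither a cell state nor a treatment, lies on another grid and was kept out of all comparisons. It held 5 of 57 member starts (8.77%, against 30.0% of all starts), which were Pcdha1, Pcdha2, Pcdha3 and Pcdha4 in a domain of 50 kb and Pcdhac2 in a domain of 40.0 kb. No beta or gamma start was in it, and it covered 25.2% of the alpha span.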

How the data were processed

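The authors aligned reads with STAR 2.7.10 in a mode that keeps reads with several matches, removed duplicates with Picard 2.26.0 and regions of artificially high signal, and scaled coverage to genome content. They called domains from the log2 ratio to input on a 5 kb grid, from a high percentile of the ratio outwards to a low one. Whether replicates were pooled and percentiles were set per list is not given in the sources used here. The deposited lists hold chromosome, start and end, with a score of 0 throughout, and have no column for a replicate.

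Domains were read with Python 3.11.15 and numpy 2.4.6. Gene models came from GENCODE M21 on GRCm38.p6, the build of the lists. Where M21 gives the symbol Pcdha11 to a pair of models, the upstream one (ENSMUSG00000007440.10) was called Pcdha10 after RefSeq. Pcdhgb8, a polymorphic pseudogene in M21, was no member. A start is the first base of the gene model. Counting was tested on simulated domains. No test compared conditions, since each has 1 list. The members and gene lists were chosen with earlier results of these data known. Named were first, last and C-type members, members and neighbours whose state differed between sorted lists (up to 12 per cluster), the deepest members, and the nearest genes. Beyond these, Pcdhb8, Pcdhb9, the members outside every list and the genes of the other lists were named after their values were seen, and the densities of starts in gaps were added then. Alternatives changed domain width, edges and gaps, the definition of a start, C-type members and the body measure, and members near an edge were left out after seeing the data. No values of single libraries, sorted or bulk, were used here, and which libraries the unnamed list came from is not known.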

Additional observations from a re-analysis of the deposited data

Results flagged for a closer look

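The unnamed list is outside the comparisons of the report, and 5 protocadherin gene starts lay in its domains. It was flagged because this count is above a fixed limit of 3, which is not an expected count. This is 8.77% of the 57 members and lies below the 30.0% of all gene starts in that list. They were Pcdha1 to Pcdha4 and Pcdhac2, that is 5 of the 14 alpha starts (35.7%, near the share of all starts), with none of 22 beta and 21 gamma starts. Pcdha1 lay at 24.84 kb, Pcdha2 at 15.82 kb, Pcdha3 at 8.92 kb, Pcdha4 at 2.37 kb and Pcdhac2 at 8.48 kb inside.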

How the results depend on the processing

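No paired analysis was possible because each condition has 1 list and no value per replicate, and for the same reason no replicate could be left out. Of all recomputed values 30 moved beyond the interval or 1.5-fold limit used and 202 others for the same results did not, and in all 122 recomputed pairs dTAG stayed higher than DMSO. The gamma pairs could not reverse, since their DMSO value was 0 in every setting. Pairs over all members repeat those of the clusters, and every setting uses the same lists, so the pairs are not independent. Covered shares were judged by a 95% Wilson interval that treats genes or 5 kb bins as independent, which neighbours are not. The interval is thus a loose limit and no measure of stability. The mean alpha body in 2CLC dTAG, 67.2% as reported, counted as not moved at 45.5% with domains of at least 50 kb only. With domains narrowed by 5 kb at both ends, alpha starts in 2CLC DMSO were 1, beta starts in mESC dTAG 8, gamma starts in 2CLC dTAG 1 and members that left in mESCs 2 of 11, and the beta span was covered to 63.4% in mESC dTAG and 53.8% in 2CLC dTAG, with a mean beta body of 39.6% in mESC dTAG. With domains widened by 5 kb, beta starts were 7 with DMSO and 20 with dTAG in mESCs, and 6 and 16 in 2CLCs, members that left in mESCs 0, the alpha span in mESC dTAG 98.8%, the beta span 92.3% in mESC dTAG and 84.6% in 2CLC dTAG, and mean beta bodies 86.5% and 75.4%. With domains of at least 50 kb only, beta starts were 8 in mESC dTAG and 5 in 2CLC dTAG, members that left in mESCs 2 of 12, the alpha span in 2CLC dTAG 61.9%, the beta span 53.8% and 48.0% and the mean beta body in mESC dTAG 40.8%. With gaps of 10 kb or less joined, no member left in mESCs (0 of 12), and the beta span and mean beta body in mESC dTAG were 88.4% and 80.9%. The first exon alone gave a mean of 85.7% for alpha in 2CLC dTAG. Without starts within 5 kb of an edge, a setting chosen after seeing the data, 1 of 12 alpha starts (8.33%) lay in 2CLC DMSO and 1 of 19 gamma starts (5.26%) in 2CLC dTAG. The bins of 5 kb limit every position, and the depth behind the lists is unknown.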

Other observations

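Genes of other cadherin families were counted in the same way. Of 9 large cadherin genes, which encode the Fat, Dachsous and Celsr proteins of planar cell polarity, 3 starts were in domains with DMSO and none with dTAG in mESCs, and 4 and 1 in 2CLCs. These are 33.3%, 0, 44.4% and 11.1%, where all genes had 22.3%, 23.6%, 23.2% and 26.5%. Fat1 lay at 2.5 kb in both DMSO lists and -87.5 kb in both dTAG lists, and Fat4 at 2.48 kb in both DMSO lists, -27.52 kb in mESC dTAG and -42.48 kb in 2CLC dTAG. Both were close to an edge with DMSO and far outside with dTAG. Fat3 lay at 284.68 kb, -10.32 kb, 0.32 kb and 59.68 kb in mESC DMSO, mESC dTAG, 2CLC DMSO and 2CLC dTAG. The direction of these counts was opposite to that of the clustered protocadherins.

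Of 23 classical and related cadherin genes, 6 starts were in domains with DMSO and 7 with dTAG in mESCs, and 8 and 7 in 2CLCs. These are 26.1%, 30.4%, 34.8% and 30.4%, against 22.3%, 23.6%, 23.2% and 26.5% of all starts. With dTAG, 1 of 17 outside entered in mESCs and 2 of 15 in 2CLCs, against 8.14% and 9.80% of all starts. In the other direction, 0 left in mESCs and 3 in 2CLCs. Cdh2, which encodes N-cadherin, was inside in 2CLC DMSO only, at 10.35 kb. Of 9 genes for partners of the protocadherin cytoplasmic part, Abi1, a subunit of the WAVE complex, was inside in mESC dTAG at 47.29 kb, and no other was in a sorted list. This is 11.1% in mESC dTAG, against 23.6% of all starts, and 0 in each of the remaining sorted lists.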
